A study of Mus musculus with 2 samples.

Results

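Interferon-stimulated genes of the liver were compared between an RNA pool from mice lacking Fhl2, as labelled, and an RNA pool from wild-type mice. The group is a fixed list of 34 genes, of which 25 are usually described as induced by type I interferon and 9 as induced by interferon gamma. A gene was measured where a probe set (several short oligonucleotides summarised to 1 value) was annotated to it and to no other gene, and the probe set with the highest mean of both arrays was used. This left 28 of the 34 genes, 22 type I and 6 interferon gamma members, among 19938 genes measured in all. Each pool held left-lobe liver RNA of 3 male mice aged 10 to 11 weeks on a hybrid Black Swiss/129-SV/J background, with the FHL2-/- genotype in one pool and the wild-type genotype in the other. Each pool was hybridised to 1 Affymetrix array, so there were no replicates, no p-value could be given, and pooling hid the spread between mice. The labels describe neither the deleted exons nor whether the mice were littermates.

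Type I interferons bind a receptor whose kinases JAK1 and TYK2 phosphorylate STAT2, which enters a complex with IRF9 that binds the interferon-stimulated response element (ISRE). Interferon gamma acts through JAK1 and JAK2, and many of its target genes carry the gamma-activated site (GAS). In liver, hepatocytes, Kupffer cells and endothelial cells all carry both kinds of receptor, and many of these genes are transcribed at a low level without infection.

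Values are deposited log2 signals, and each difference has the wild-type value subtracted from the knockout-labelled value, so a positive one means higher in the knockout-labelled pool. Array medians over all probe sets were 5.71 in the knockout-labelled pool and 5.76 in the wild-type pool. Fhl2 itself was at 5.33 in the knockout-labelled pool and 5.30 in the wild-type pool, on 1 probe set below the level filter described next, so this probe set does not show the genotype. The hepatocyte markers were bright in both pools, with a mean log2 signal of 12.89 in the knockout-labelled pool and 12.85 in the wild-type pool over 17 genes. The level filter was a mean log2 signal of 5.44, percentile 40 of the probe sets with 1 gene. It was passed by 26 of the 28 measured members and missed by Ifit2 and Mx1. The spread between probe sets of 1 gene, the only repeat measurement here, was an SD of 0.14 in the log2 difference over 660 genes. This SD was taken over probe sets past the level filter and covers probe error, not mice or hybridisations.

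The interferon-stimulated genes as a group lay close to equal in both pools. Their median log2 difference was -0.02, against 0.02 for all genes, and 13 of the 28 were above 0, against 53.6% of all genes. The 26 members past the level filter had a median of -0.04, against 0.04 for genes past it. Of these members 11 were above 0, against 59.5% of genes past the filter. On the values as deposited no member reached 1.5-fold in either direction, although Ifit2 (1.49-fold) passed it once the arrays were brought to a common median or the trend on level was removed. Of all genes 0.767% were that much higher and 0.667% that much lower in the knockout-labelled pool. At 1.2-fold, 2 members (Ifit1 and Ifit2) were higher and 3 (Irf1, Oas3 and Ifi27) lower, where 9.22% of all genes were higher and 9.63% lower. Among genes past the level filter those shares were 8.66% and 6.16%, and of the 26 members past it 1 was higher and 3 were lower. The common median was that of the probe sets with 1 gene, a log2 shift of 0.0182 added to the knockout-labelled values. The median difference of all genes was already 0.02 without it, so this shift moved that median further from 0. With it, 3 members were at least 1.2-fold higher and 2 lower, since Rsad2 (0.27) passed 1.2-fold and Ifi27 (-0.25) no longer did. The background shares were taken without this shift. On the values as deposited and without the level filter, the count of members past 1.2-fold was therefore near the background in each direction. The median absolute log2 difference was 0.09 among the members and 0.13 among all genes, and 19 of the 28 members (67.9%) differed by less than 1 SD between probe sets, as did 54.6% of all genes and 59.8% of those past the level filter.

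**Figure D1:**
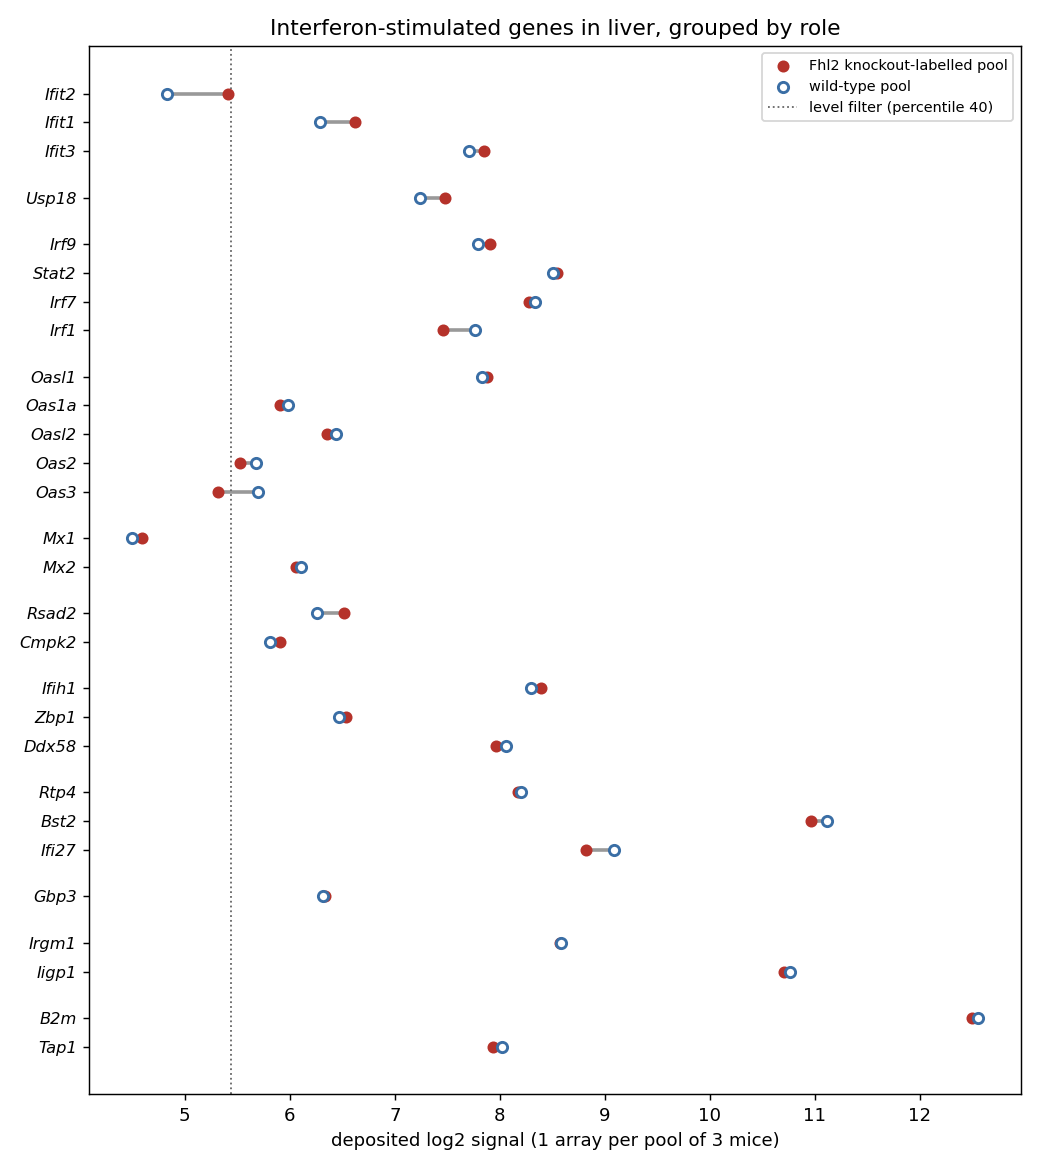
Deposited log2 signal of each measured interferon-stimulated gene (rows, grouped by role) in the knockout-labelled pool (filled) and the wild-type pool (open), 1 array each, with the level filter dotted. Most pairs nearly coincide, and Ifit2, Oas3, Ifit1, Irf1, Ifi27, Rsad2 and Usp18 show the widest gaps.

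Ifit1, Ifit2 and Ifit3, which encode tetratricopeptide proteins that bind foreign RNA and block its translation, were each higher in the knockout-labelled pool. Ifit2 had a log2 signal of 5.41 in the knockout-labelled pool and 4.84 in the wild-type pool, a difference of 0.57 (1.49-fold), the largest of any measured member. Both values lay under the level filter, where differences between arrays are less certain. Ifit1, which recognises the cap structure of viral RNA, was at 6.62 in the knockout-labelled pool and 6.29 in the wild-type pool (1.26-fold higher). Ifit3, a partner of the other family members, was at 7.85 in the knockout-labelled pool and 7.71 in the wild-type pool, and its difference of 0.14 was within 1 SD between probe sets. Their relatives outside the list, Ifit1bl2 at a difference of -0.30 and Ifit3b at -0.11, were lower in the knockout-labelled pool, both under the level filter. Ifit3b also lay within 1 SD between probe sets, so the direction of the wider family is uncertain. The 3 members lie in one cluster on chromosome 19, so they are neighbours as well as relatives, and members of such families can share hybridisation.

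The promoters of Ifit1 and Ifit3 are shown because the genes belong to one cluster and each window holds a pair of response elements. Sequences are RefSeq windows of build GRCm38.p6, from 250 bases before to 50 after the annotated start, written 5′ to 3′ on the gene's strand, with motif matches in capitals. Ifit1 is the window chr19:34640639-34640938, plus strand, with matches starting at positions -104 and -85 from the annotated start. Ifit3 is the window chr19:34583279-34583578, plus strand, with matches at -156 and -122.
Ifit1: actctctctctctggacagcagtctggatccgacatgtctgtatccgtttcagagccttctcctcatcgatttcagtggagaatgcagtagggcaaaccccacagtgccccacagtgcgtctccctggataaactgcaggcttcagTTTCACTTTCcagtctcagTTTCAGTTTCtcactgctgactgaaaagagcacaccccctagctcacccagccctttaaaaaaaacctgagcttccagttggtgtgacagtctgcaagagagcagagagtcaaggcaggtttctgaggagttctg
Ifit3: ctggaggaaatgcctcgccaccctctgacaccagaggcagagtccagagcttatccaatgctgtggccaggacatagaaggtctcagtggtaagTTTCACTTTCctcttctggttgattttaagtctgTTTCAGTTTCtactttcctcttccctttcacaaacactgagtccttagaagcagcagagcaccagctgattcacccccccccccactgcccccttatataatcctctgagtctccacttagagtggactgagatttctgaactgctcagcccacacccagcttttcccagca

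The motif searched was the ISRE core, GAAA then any 2 bases then a second GAAA, on both strands. The GAS core was TTCNNNGAA, which reads the same on both strands in its fixed letters. Of the 34 members, 25 had a window. Those without one were Usp18, Oas2, Mx1, Mx2, Zbp1, Ifi27, Rtp4, Gbp6 and Iigp1. An ISRE core was found for 16 of the 25, against 3.99% of the 27025 genes with windows (any window of a gene counted). A GAS core was found for 5 of the 25, against 9.55% of all genes, and 3 members held both, where the matches can overlap. Since the list was drawn up from genes known to respond to interferon, the ISRE share describes the list. Ifit2 had 2 windows, 1 with a GAS core and neither with an ISRE core.

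Members with and without an ISRE core overlapped in their differences. The 12 measured members with the core had a median log2 difference of 0.01 and ranged from -0.38 to 0.33. The 8 measured members whose windows lacked it had a median of -0.01 and ranged from -0.31 to 0.57. The 4 measured members with a GAS core had a median of -0.12, with Ifit2 above 0 and Irf1, Bst2 and Oas1a below it, too few to describe further.

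The oligoadenylate synthetase family, which senses double-stranded RNA and activates RNase L, mostly differed little. Of its 5 measured members 1 was above 0, against 53.6% of all genes, with a median of -0.09. Of the 5, 3 lay within 1 SD between probe sets, and 1 was at least 1.2-fold lower, as were 9.63% of all genes. Relatives outside the list, both under the level filter, were Oas1b at a difference of -0.30 and Oas1c at 0.05. Oas3 was at 5.32 in the knockout-labelled pool and 5.70 in the wild-type pool, 1.30-fold lower and the lowest of any measured member. Oas2 was at 5.53 in the knockout-labelled pool and 5.68 in the wild-type pool, and Oas1a at 5.91 in the knockout-labelled pool and 5.99 in the wild-type pool. These genes are neighbours on chromosome 5, and all 3 were dim, with values close to the level filter. Genes of like level lay slightly below 0 as well, with a median of -0.04 for the level of Oas2 and Oas3 and -0.02 for that of Oas1a. The synthetase-like genes Oasl1, whose product restrains translation of Irf7 in mouse, and Oasl2 lie apart from them on the same chromosome. Oasl1 was at 7.88 in the knockout-labelled pool and 7.83 in the wild-type pool, and Oasl2 at 6.35 in the knockout-labelled pool and 6.44 in the wild-type pool, both within 1 SD between probe sets.

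The promoters of Oas3 and Oas1a are shown to set beside those of the Ifit genes, since they hold the same core while their values lay on the other side of 0. Oas1a and Ifit3 differed by less than 1 SD between probe sets, so for them the side of 0 is uncertain. Oas3 is the window chr5:120777610-120777909, minus strand, with the ISRE core at -75. Oas1a is the window chr5:120907476-120907775, minus strand, with 2 overlapping ISRE cores at -20 and -14 and a GAS core at -98.
Oas3: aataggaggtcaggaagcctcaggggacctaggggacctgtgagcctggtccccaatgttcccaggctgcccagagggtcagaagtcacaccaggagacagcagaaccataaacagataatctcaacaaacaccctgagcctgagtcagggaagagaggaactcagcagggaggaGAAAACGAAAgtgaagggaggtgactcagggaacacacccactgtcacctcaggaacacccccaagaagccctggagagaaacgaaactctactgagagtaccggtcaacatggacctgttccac
Oas1a: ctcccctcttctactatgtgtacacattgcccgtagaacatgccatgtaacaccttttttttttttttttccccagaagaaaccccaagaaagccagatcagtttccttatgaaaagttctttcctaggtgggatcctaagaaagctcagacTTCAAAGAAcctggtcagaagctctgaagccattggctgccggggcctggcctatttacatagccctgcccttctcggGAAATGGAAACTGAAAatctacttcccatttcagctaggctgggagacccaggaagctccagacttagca

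Other effectors were divided. Rsad2, whose enzyme viperin makes a chain-terminating nucleotide, was at 6.51 in the knockout-labelled pool and 6.26 in the wild-type pool (1.19-fold higher). Its chromosome 12 neighbour Cmpk2, a nucleotide kinase, was at 5.90 in the knockout-labelled pool and 5.81 in the wild-type pool. Both were therefore above 0, Cmpk2 by less than 1 SD between probe sets. Usp18, the protease that removes ISG15 from proteins and dampens receptor signalling, was at 7.48 in the knockout-labelled pool and 7.24 in the wild-type pool (1.18-fold higher).

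Ifi27, a small protein of mitochondrial and nuclear membranes, was at 8.82 in the knockout-labelled pool and 9.09 in the wild-type pool, a difference of -0.27. Bst2, or tetherin, which holds budding virus at the cell surface, was at 10.96 in the knockout-labelled pool and 11.12 in the wild-type pool. Rtp4, a chaperone of receptors, was at 8.17 in the knockout-labelled pool and 8.20 in the wild-type pool. These 3 were all below 0, and Rtp4 was nearly equal between the pools. The Mx genes encode dynamin-like GTPases that trap viral particles. Mx1 was at 4.60 in the knockout-labelled pool and 4.49 in the wild-type pool, and Mx2 at 6.06 in the knockout-labelled pool and 6.11 in the wild-type pool.

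The sensors and the transcription factors of the type I arm differed little. Ifih1, which encodes the long double-stranded RNA sensor MDA5, was at 8.39 in the knockout-labelled pool and 8.30 in the wild-type pool. Ddx58, the RNA sensor RIG-I, was at 7.96 in the knockout-labelled pool and 8.06 in the wild-type pool. Zbp1, a sensor of left-handed nucleic acid that triggers necroptosis, was at 6.53 in the knockout-labelled pool and 6.47 in the wild-type pool. All 3 differences were within 1 SD between probe sets. The same held for 3 transcription factors. Irf9 was at 7.91 in the knockout-labelled pool and 7.79 in the wild-type pool, and its partner Stat2 at 8.55 in the knockout-labelled pool and 8.51 in the wild-type pool. Irf7, the factor that amplifies interferon alpha transcription, was at 8.28 in the knockout-labelled pool and 8.34 in the wild-type pool.

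Irf1, a transcription factor that interferon gamma induces early, was the lowest of the interferon gamma members and the one member with 2 probe sets of its own. On the brighter probe set its log2 signal was 7.46 in the knockout-labelled pool and 7.77 in the wild-type pool, 1.24-fold lower. On the dimmer one it was 5.07 in the knockout-labelled pool and 5.50 in the wild-type pool, a difference of -0.43. Both probe sets were thus lower in the knockout-labelled pool by more than 1 SD between probe sets. The mean of the dimmer one lay under the level filter, while that SD was taken over probe sets past it. The promoter of Irf1 is shown because it holds a GAS core, beside that of Irgm1, an interferon gamma member with ISRE cores and nearly equal values. Irf1 is the window chr11:53769764-53770063, plus strand, with the core at -90. The table lists a second start of Irf1, whose window held neither core. Irgm1 is the window chr11:48871371-48871670, minus strand, with overlapping ISRE cores at -30 and -24.
Irf1: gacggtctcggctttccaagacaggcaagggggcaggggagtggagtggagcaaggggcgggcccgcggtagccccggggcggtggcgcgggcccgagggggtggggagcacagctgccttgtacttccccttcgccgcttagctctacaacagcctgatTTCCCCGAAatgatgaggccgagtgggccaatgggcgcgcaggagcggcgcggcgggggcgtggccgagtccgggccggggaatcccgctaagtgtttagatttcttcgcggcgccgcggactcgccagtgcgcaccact
Irgm1: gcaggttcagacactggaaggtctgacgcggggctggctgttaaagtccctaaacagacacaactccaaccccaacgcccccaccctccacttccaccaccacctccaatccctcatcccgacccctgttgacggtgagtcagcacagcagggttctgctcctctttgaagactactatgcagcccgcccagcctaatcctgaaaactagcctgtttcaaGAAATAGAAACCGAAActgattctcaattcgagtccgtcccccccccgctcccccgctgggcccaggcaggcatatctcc

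The other interferon gamma members were close to equal. Irgm1, an immunity-related GTPase that acts on autophagy and on vacuoles of intracellular pathogens, was at 8.58 in the knockout-labelled pool and 8.59 in the wild-type pool. Iigp1, a GTPase of the same family that breaks such vacuoles, was at 10.70 in the knockout-labelled pool and 10.77 in the wild-type pool. Gbp3, a guanylate-binding protein, was at 6.34 in the knockout-labelled pool and 6.31 in the wild-type pool. None of these 3 differed by more than 1 SD between probe sets. Neither did the presentation genes, of which Tap1, a peptide transporter subunit, was at 7.94 in the knockout-labelled pool and 8.02 in the wild-type pool. B2m, the light chain of MHC class I, was at 12.50 in the knockout-labelled pool and 12.56 in the wild-type pool.

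**Figure D2:**
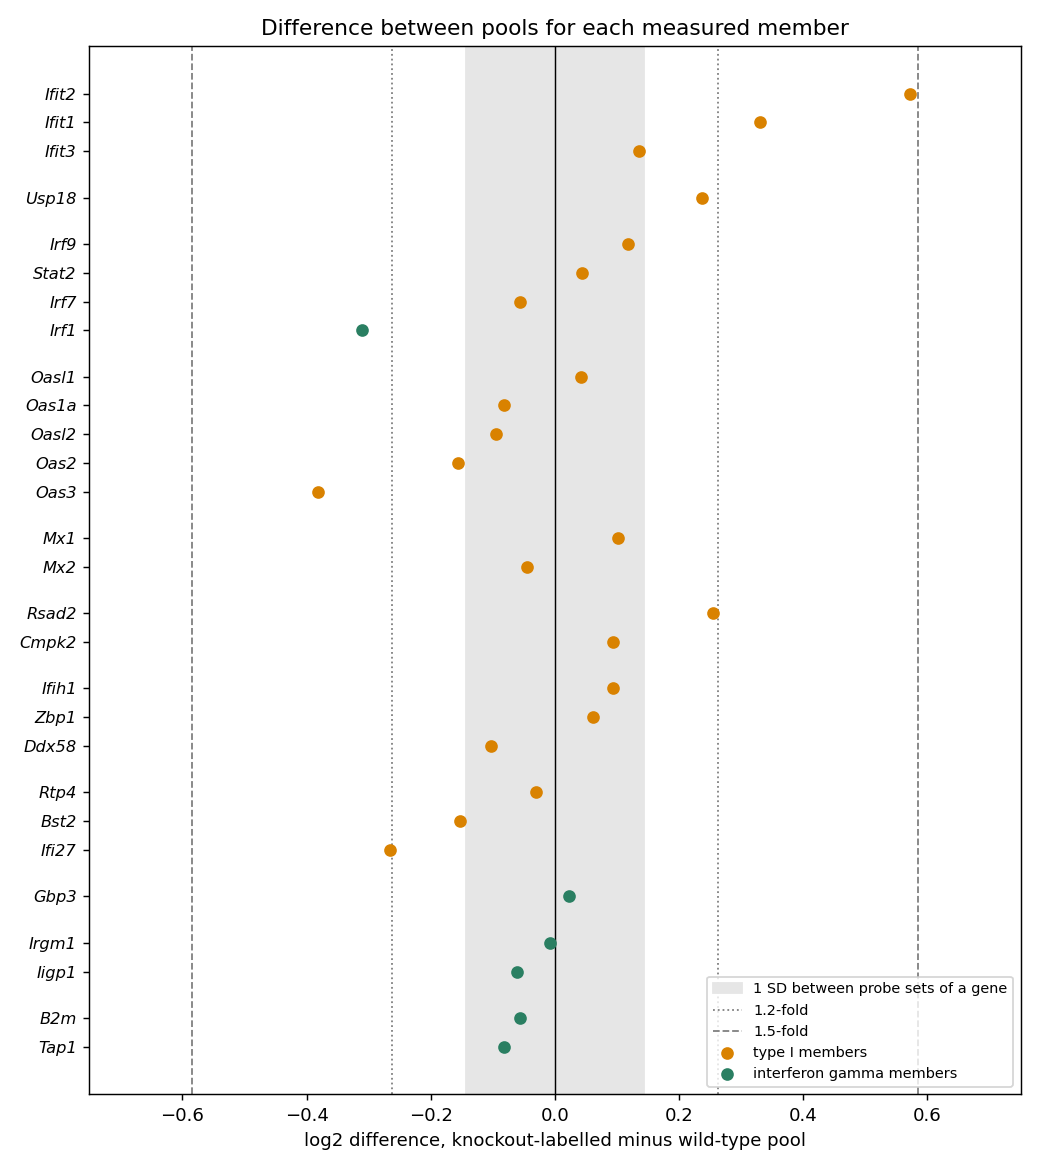
Log2 difference (knockout-labelled minus wild-type pool, x axis) of each measured member (rows, grouped by role), coloured by class, with 1 SD between probe sets shaded and 1.2-fold and 1.5-fold marked. Ifit1, Ifit2 and Ifit3 lie right of 0, and Oas1a, Oas2, Oas3 and Irf1 left of it. No member reaches 1.5-fold on the values as deposited.

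Set against each other, interferon gamma members had a median log2 difference of -0.06 over 6 genes and type I members a median of 0.04 over 22 genes. The medians differed by -0.10, a difference that 1 array per pool does not allow to be tested. Of the interferon gamma members 1 of 6 was above 0, and of the type I members 12 of 22. Above 0 were 53.6% of all genes and 59.5% of those past the level filter. The interferon gamma range, -0.31 to 0.02, lay inside the type I range, -0.38 to 0.57. The 12 type I members above 0, from Oasl1 (0.04) up, all lay above the highest interferon gamma member, Gbp3 (0.02). The other 10 type I members were below 0, as were 5 of the 6 interferon gamma members. The type I median turned to -0.02 once the trend of the difference on level was removed, so its sign depends on that step.

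The remaining 6 members had no probe set of their own. Ifi44 was matched to no probe set here. Isg15, Oas1g, Gbp2, Gbp6 and Igtp were named together with other genes on 5 probe sets, whose values cannot be given to any 1 gene. Those 5 probe sets were all lower in the knockout-labelled pool, with log2 differences from -0.65 to -0.14 and a median of -0.37, and 4 of them were past 1.2-fold. Among all 1621 probe sets shared by several genes, 59.0% were below 0 and 9.81% were that much lower. With these 5 probe sets added, a step chosen after the data were seen, 7 values instead of 3 lay at least 1.2-fold lower and the median of all members was -0.06.

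Dim genes vary more between arrays, so each member was also ranked among genes of like level, in 20 equal bins of mean signal. In the outer 5 percent on either side lay 3 of the 28 members, where 10.0% of all genes lie by construction. They were Ifit2 at percentile 99.0 of its bin, Ifi27 at 2.36 and Irf1 at 2.26. Oas3, though lowest in difference, was at percentile 6.07 of its dim bin, and Bst2 at 6.77 of its bright one. Ifit1 was at 92.4 and Rsad2 at 87.0. This share of members too was near the background.

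**Figure D3:**
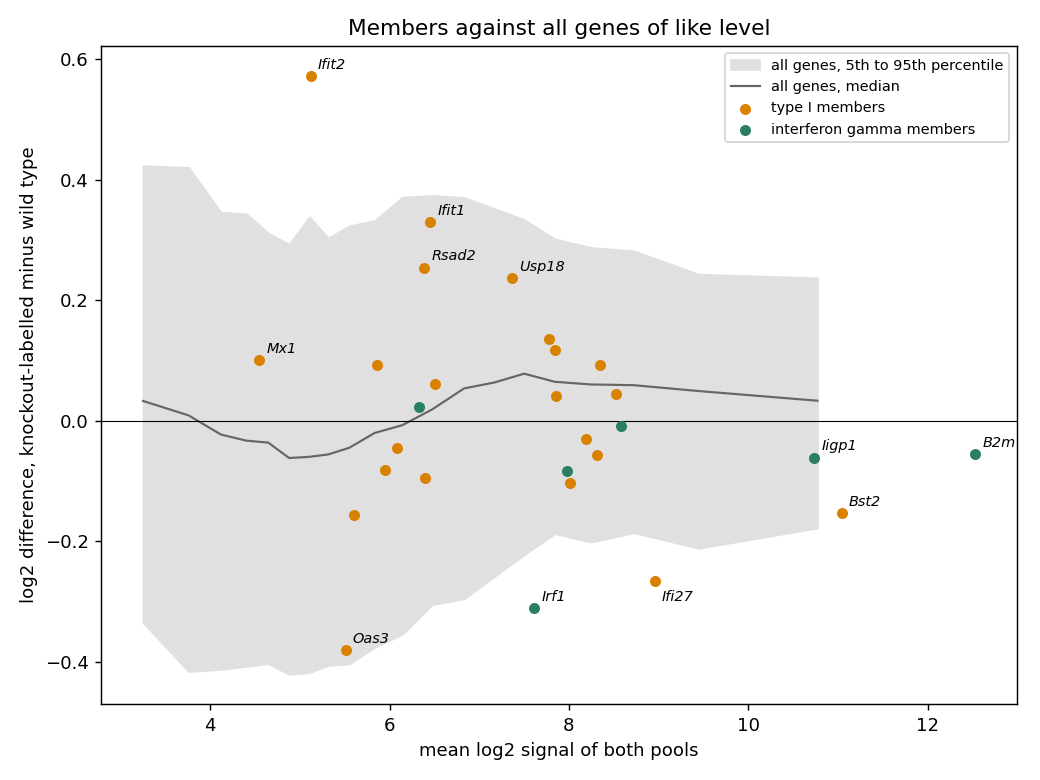
Log2 difference (knockout-labelled minus wild-type pool) of each measured member against its mean log2 signal, with the median and the 5th to 95th percentile of all genes in 20 level bins, drawn at bin medians. Ifit2 lies above the grey band and Irf1 and Ifi27 below it, while Bst2 and B2m lie right of the last bin median.

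Genes upstream of the response gave no shared direction. Of the interferon ligand genes 16 were measured and 3 passed the level filter, with a median log2 difference of 0.02 and extremes at Ifna2 (-0.43) and Ifna12 (0.35), both under the filter. Receptor, Janus kinase and STAT genes had a median of 0.01 over 11 genes. Stat3, of the interleukin-6 pathway, was at 9.46 in the knockout-labelled pool and 9.18 in the wild-type pool (1.22-fold higher) and Jak1 at a difference of 0.15. The kinase gene Tyk2 was at -0.26 and the interferon gamma receptor subunit Ifngr1 at -0.20. Other interferon regulatory factors ranged from -0.24 for Irf8, a factor of myeloid cells, and -0.06 for Irf4 to 0.18 for Irf5 and 0.24 for Irf2.

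Among 23 genes of nucleic acid sensing the median was 0.03, with 2 at least 1.2-fold higher and 2 as much lower. Of all genes 9.22% were that much higher and 9.63% that much lower. Tlr9, the endosomal receptor for unmethylated DNA, was at 5.63 in the knockout-labelled pool and 6.34 in the wild-type pool, 1.63-fold lower. Tlr2, a receptor for bacterial lipoproteins, was at -0.29. The adaptor gene Myd88 was at 0.33 and Azi2, an adaptor of the kinase TBK1, at 0.39. Receptors and adaptors thus included values on both sides of 0.

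Negative regulators of interferon signalling had a median of 0.14 over 20 genes, with 15 above 0, against 53.6% of all genes. Irf2bp1, a corepressor partner of IRF2, was at 0.35 and Foxo3 at 0.25. Irf2bp2 was at -0.19, and Bcl6, a transcriptional repressor, was 3.94-fold lower, the 1 gene of the list past 1.5-fold. The suppressor Socs1, itself induced by interferon gamma, was at 0.15.

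Interferon-induced genes outside the list of 34 had medians close to those of the members. The type I genes had a median of 0.03 over 56 measured, with 32 above 0, 7 at least 1.2-fold higher and 7 as much lower. Of all genes 53.6% were above 0, 9.22% at least 1.2-fold higher and 9.63% as much lower. Ifi203 was at 0.43 and Mov10, an RNA helicase, at 0.36, while Ms4a4c was at -0.46. Ifi208 was at 3.67 in the knockout-labelled pool and 4.28 in the wild-type pool, 1.52-fold lower and well under the level filter. The interferon gamma genes had a median of -0.08 over 27 measured, with 11 above 0, 1 at least 1.2-fold higher and 2 as much lower. Cd274, the checkpoint ligand PD-L1, was at 0.37 and Gbp8 at 0.19, while Gbp2b was at -0.34 and Nos2, the inducible nitric oxide synthase, at -0.26. Class I presentation genes had a median of -0.02 over 15 genes, from -0.43 for H2-M3 and -0.34 for the chaperone Pdia3 to 0.14 for Tap2 and 0.23 for tapasin, Tapbp.

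Cell type markers give the setting of these values. MHC class II genes, which interferon gamma induces through Ciita, were below 0 for all 6 measured. Their median was -0.30 and 4 were at least 1.2-fold lower. Of all genes 53.6% were above 0 and 9.63% at least 1.2-fold lower. H2-Ab1 was at 8.41 in the knockout-labelled pool and 8.89 in the wild-type pool, H2-Aa at a difference of -0.40, Ciita at -0.19 and H2-DMa at -0.16. Markers of Kupffer cells and other macrophages had a median of -0.16 over 20 genes, with 8 at least 1.2-fold lower and 0 as much higher. All 20 passed the level filter, where 6.16% of genes were that much lower and 8.66% that much higher. The mean log2 signal of these markers was 7.62 in the knockout-labelled pool and 7.75 in the wild-type pool. Cd14 was at -0.41 and Adgre1 at -0.40 and, at the other end, Cd163 at 0.24 and C1qc at 0.22. In pooled tissue, fewer cells of a type and less RNA per cell cannot be told apart. The part of macrophage content in the values of Irf1, Tlr9 and the shared probe sets was not tested.

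Dendritic cell markers, which include the member Bst2, had a median of -0.09 over 12 genes. Ccr9, a chemokine receptor of plasmacytoid cells, was 1.66-fold higher under the level filter, Xcr1 at 0.13 and Zbtb46 at -0.24. T and NK cell markers, from the cells that make interferon gamma, had a median of -0.11 over 17 genes, of which 5 passed the level filter. Gzma was at -0.56 and Cd8a at -0.40, while Cd4 was at 0.28 and Il2rb at 0.20. Ifng itself was at 4.62 in the knockout-labelled pool and 4.61 in the wild-type pool, below the filter. Neutrophil markers had a median of -0.15 with 1 of 10 past the filter, and B and plasma cell markers a median of -0.01 with 2 of 10 past it. Of 16 endothelial markers 14 were above 0, with a median of 0.12, led by Gpr182 at 0.50 and Kdr at 0.20. All 16 passed the level filter, where 59.5% of genes were above 0. No marker is at 0 on this scale, and the table holds no detection call.

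**Figure D4:**
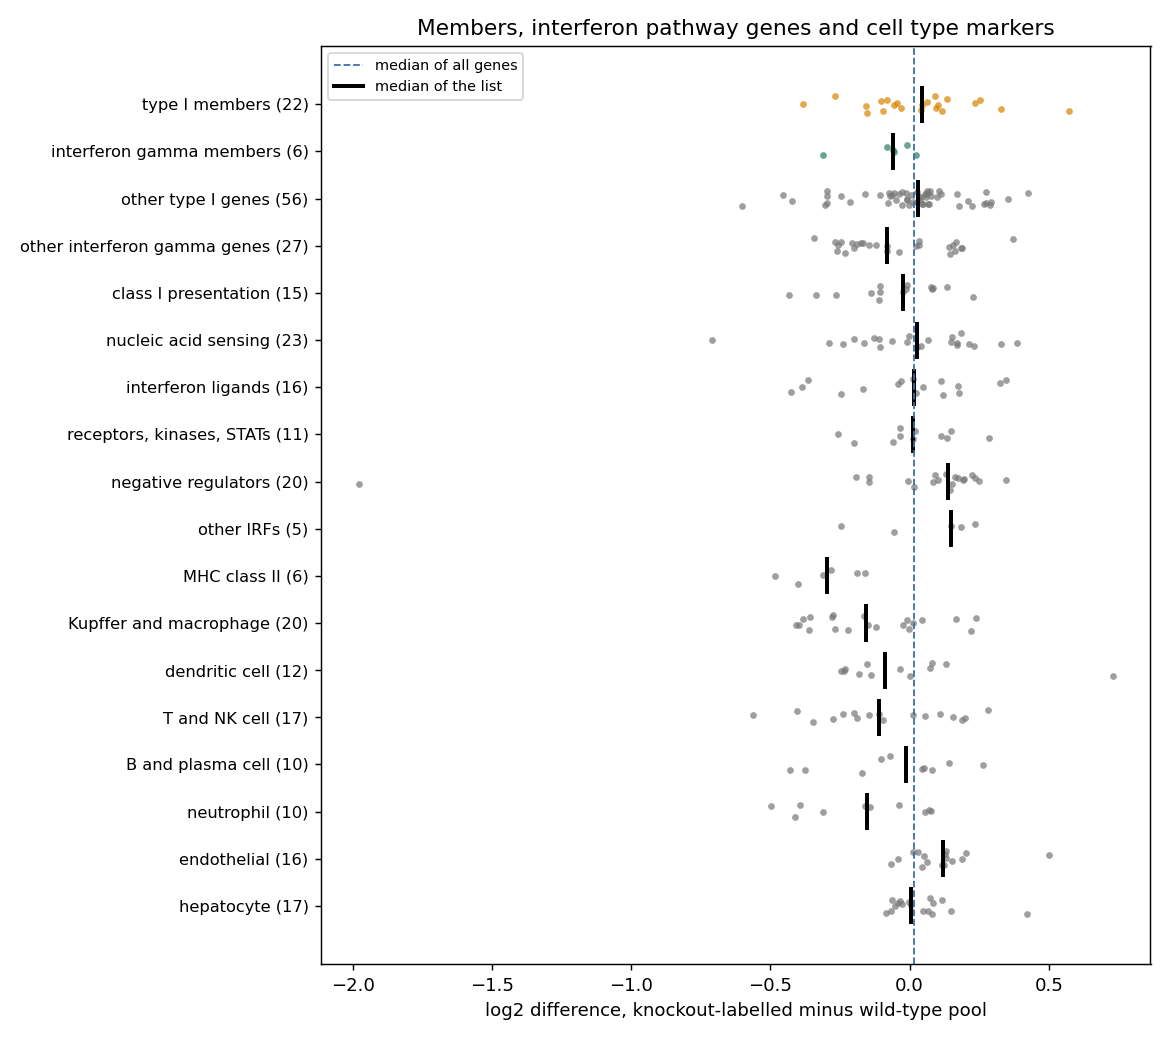
Log2 difference (knockout-labelled minus wild-type pool, x axis) of every measured gene in the member classes, interferon pathway lists and cell type marker lists (rows, number of genes in brackets), with list medians in black and the median of all genes dashed. The medians of type I members (0.04) and interferon gamma members (-0.06) lie on either side of that of all genes (0.02). MHC class II, Kupffer cell, neutrophil and T and NK cell markers lie left of it. Endothelial markers, negative regulators and other interferon regulatory factors lie right of it.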

How the data were processed

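The authors deposited 1 log2 value per probe set and array. Programs listed in the submitters' processing notes are RMA, Partek 6.4 and Affymetrix Expression Console 1.0, in no stated order. RMA brings arrays to a common distribution and compresses differences of dim transcripts. The genome build is not given in the sources used here.

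Of 28853 probe sets, 21789 were annotated to 1 gene symbol in the platform annotation, 1621 to several and 5443 to none. Differences, medians and counts were computed with Python 3.11.15 and pandas 2.3.3 on the values as deposited, with no level filter, so that every measured member counted. The steps were tested on simulated data with planted changes larger than 1.5-fold, so that test does not cover the smaller differences described here. Thresholds of 1.2-fold and 1.5-fold are descriptive. Named genes are all members and, in other lists, the 2 highest, the 2 lowest and any gene past 1.5-fold, predicted models aside. Socs1, Ifng, Ifit1bl2, Ifit3b, Oas1b, Oas1c, Ifi205, Ifi213, Aim2 and the Ifitm genes fall outside that rule and were named with values in view. The members and lists were chosen with earlier results of these data known. Alternatives were a common median, lowess on level (span 0.3), the mean over probe sets, level filters at percentiles 40 and 60, leaving out the most extreme member, and means. Promoter windows were matched by symbol.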

Additional observations from a re-analysis of the deposited data

How the results depend on the processing

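With 1 array per pool, the number of arrays limits the precision, and signal over background cannot be read from the table. No paired analysis was possible because each group holds 1 array. All 28 measured members moved by less than 1 SD between probe sets (0.14) under a common median, lowess on level and the mean over probe sets, by at most 0.06. The common median adds the same 0.0182 to every member, and the mean over probe sets can alter only Irf1. Only lowess on level could therefore move each member by its own amount. The sign changed for Irgm1 (0.01) under the common median and for Stat2 (-0.01) and Oasl1 (-0.02) under lowess. The median of all members, -0.02, became 0.0079 as a mean, and the type I median, 0.04, became -0.015 under lowess on level. The interferon gamma median stayed between -0.09 and -0.04 and the interferon gamma minus type I difference between -0.12 and -0.06 under all 7 alternatives run on them. Not all 7 could change these values. A common median shifts both classes alike, so their difference cannot move. The mean over probe sets left both medians as reported, and the filter at percentile 40 removed no interferon gamma member. Members above 0, 13 as reported, numbered 6 with the filter at percentile 60, since fewer genes were counted. For the same reason members at least 1.2-fold higher, 2 as reported, numbered 1 and 0 with the filters at percentiles 40 and 60. At least 1.5-fold higher was 1 member, Ifit2, under both the common median and lowess, against 0 as reported. With the shared probe sets, 7 values were at least 1.2-fold and 1 at least 1.5-fold lower.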

Other observations

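The Ifi200 family of interferon-induced nuclear proteins, relatives of the DNA sensor Aim2, spread widely between the pools (members chosen after their values were seen). Ifi203 had a log2 signal of 6.62 in the knockout-labelled pool and 6.20 in the wild-type pool, and Aim2 was at a difference of 0.23. Ifi205 was at -0.42, Ifi213 at -0.30 and Ifi208 at -0.60, and these 3 were below the level filter, as was Aim2. The interferon-induced transmembrane genes, whose products block entry of enveloped viruses and which were likewise chosen after their values were seen, were above 0 for the 3 named here. Ifitm1 was at a difference of 0.28, Ifitm2 at 0.18 and Ifitm3 at 0.08. In both families near-identical relatives can share hybridisation, so the value of 1 gene is uncertain.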
